A study of Rattus norvegicus with 24 samples.

Results

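Hypothalamic RNA of 5 rats in late proestrus was set against that of 5 late juvenile rats, which makes 10 of the 24 arrays of a series on the hypothalamic control of puberty. The arrays of these stages were taken by their labels, none being left out, and a probe entered where its detection p-value was under 0.05 on at least 4 of these 10 arrays. Of 22523 probes 11292 passed, and they stood for 11081 transcripts, each given by the brightest probe of its target. The files give Illumina identifiers without gene names, 0 of these identifiers were found in the rat gene tables used here, and so the hypothalamic and other cell type markers are not analysed here.

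All rats were Sprague Dawley animals for which the labels name no treatment, and the tissue was the whole dissected hypothalamus, with 1 array per rat. The late proestrus rats, numbered 11, 12, 13, 14 and 20 in the labels, were 31 days old and killed on the day of first ovulation. The late juvenile rats, numbered 28, 29, 35, 36 and 37, were 29 days old. No animal number recurs, and the 10 arrays were counted as 10 rats, but the numbers of the groups do not interleave, and the stage cannot be told apart from rearing or processing peculiar to either set. Other arrays of the series, from rats of the early juvenile stage at 21 days (n = 5), of the juvenile stage at 26 days (n = 5) and of early proestrus at 29 to 32 days (n = 4), were used only to place these groups.

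The hypothalamus drives the ovary through gonadotropin-releasing hormone, which is secreted in pulses and makes the pituitary release luteinizing and follicle-stimulating hormone. In juvenile animals this drive is held low. At proestrus, rising estradiol from ripe follicles feeds back on hypothalamic neurons, and the surge of gonadotropin-releasing hormone that follows brings on ovulation. The comparison therefore sets the end of that course against the last juvenile stage, and early proestrus lies between them. The tissue was a whole block, in which fewer cells of a type and less RNA per cell cannot be told apart.

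Brightness of the arrays was compared first. Mean raw signals were 886.1, 1015, 1025, 912.8 and 694.9 intensity units on late proestrus rats 11, 12, 13, 14 and 20, against 582.9, 746.8, 727.6, 754.9 and 713.2 on late juvenile rats 28, 29, 35, 36 and 37. Late proestrus averaged 906.7 ± 133 and late juvenile 705.1 ± 70.2 (SD, n = 5 each, two-sided exact permutation p = 0.0397, 0.0595 adjusted over 3 array measures, where the smallest unadjusted p possible is 0.00794). The groups overlap, since rat 20 lay below 4 of the 5 late juvenile arrays. The share of probes detected was 49.6% ± 0.93 in late proestrus and 47.2% ± 1.29 in late juvenile rats (SD, n = 5 each, exact permutation p = 0.0238, adjusted 0.0595), while the median raw signal, 225.2 against 217.1, gave an exact permutation p of 0.508 (n = 5 each). Late juvenile rat 28 stood apart from its group in brightness and on the second principal component, and results without it are given beside those of all 10 arrays.

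On the first principal component of the 11081 transcripts, which held 40.3% of the variance, late proestrus rats scored from 13.8 to 21.7. The late juvenile rats scored -8.73 for rat 28 and from -23.6 to -19.2 for the other 4. The groups did not overlap on this axis. The second component, with 19.8% of the variance, held rat 28 at 36.1, while the other 9 arrays lay between -13.1 and 5.63. Without rat 28 the first component held 49% of the variance, with late proestrus at 13.2 to 20.6 and late juvenile at -25.4 to -20.6. Rank correlations of raw signal were between 0.979 and 0.985 on average within late proestrus and between 0.964 and 0.977 within late juvenile rats. Between the groups they were 0.960 to 0.966 on average for any array.

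**Figure D1:**
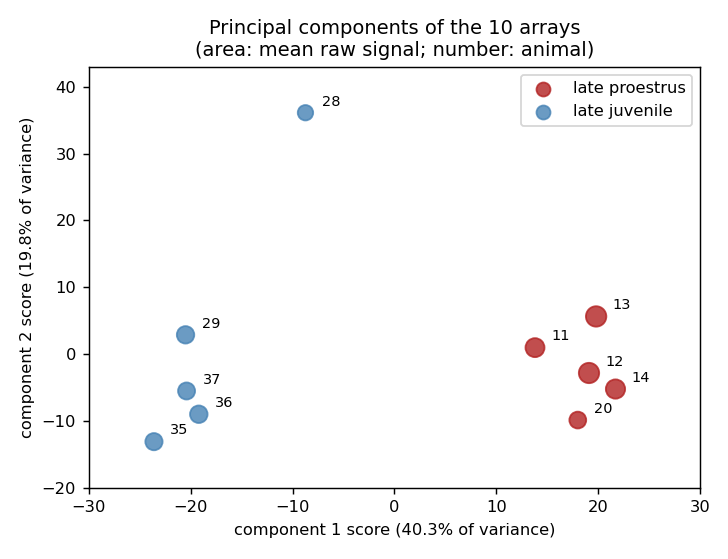
First against second principal component score of the 10 arrays (no unit), 1 point per rat, with the animal number beside it and the area of the point in proportion to mean raw signal. Late proestrus rats lie at 13.8 or more on the first component and late juvenile rats at -8.73 or less, and late juvenile rat 28 lies alone at 36.1 on the second.

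Of the 11081 transcripts, 2284 differed between the groups (20.6%, limma, Benjamini-Hochberg adjusted p under 0.05), with 1155 higher (10.4%) and 1129 lower (10.2%) in late proestrus. A further measure that needs no model gave 1592 transcripts (14.4%) on which the arrays of the groups did not overlap, 785 with late proestrus above (7.08%) and 807 with it below (7.28%). Of the 2284 called transcripts, 1424 were among them and 860 had overlapping arrays. The even split of directions holds relative to each array's own distribution, because quantile normalization gives all arrays 1 common distribution. With median scaling in its place the median difference of all transcripts moved to 0.299 on the log2 scale, and limma called 4890 higher and 408 lower. With array brightness as a covariate 707 transcripts were called, 343 higher and 364 lower, and the part of brightness in the result was not tested beyond this fit.

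The count moved when single rats were left out. Without late juvenile rat 28 limma called 3458 of 10950 transcripts (1672 higher, 1786 lower). Of the 2284, 95.5% were called again, all 2182 of these in the same direction. The groups did not overlap for 2833 transcripts (25.9%), a looser condition with 4 late juvenile arrays. Without late proestrus rat 12 the count fell to 1416, and without rat 14 to 1470.

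**Figure D2:**
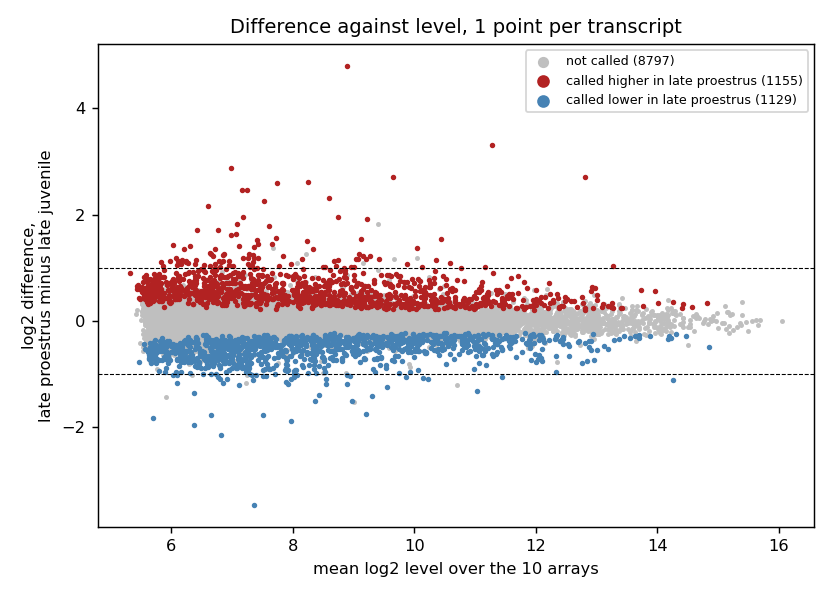
Log2 difference, late proestrus minus late juvenile, against the mean log2 level over the 10 arrays, 1 point per transcript, with the 1155 called higher in red, the 1129 called lower in blue and the rest in grey. Dashed lines mark 2-fold differences, and more points lie beyond the upper line than beyond the lower one.

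Most called differences were small. The median log2 difference was 0.51 among transcripts called higher and -0.48 among those called lower, and the smallest called was 0.20. Over all transcripts tested, the quartiles of the differences were -0.19 and 0.19, with a median standard error of 0.12. A difference of at least 2-fold beside the adjusted p was met by 142 transcripts (1.28%), 99 higher (0.893%) and 43 lower (0.388%) in late proestrus. Higher transcripts outnumbered lower ones in each class past 2-fold, with 73 higher and 34 lower between 1 and 1.5 on the log2 scale, 14 and 7 between 1.5 and 2, and 12 and 2 from 2 upward. Sizes depend on background correction, which stretches dim probes: without it 26 transcripts passed 2-fold, 19 higher and 7 lower. Without rat 28 there were 181, with 131 higher and 50 lower. The excess of higher transcripts was small with array brightness as a covariate, at 89 higher and 82 lower. It was also small where each array had to detect the probe at p under 0.01, at 38 higher and 32 lower. In the other settings the excess was larger, for example 126 higher and 44 lower with array weights, and 97 and 40 with a trended robust prior.

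Of 42 transcripts detected on all 5 late proestrus arrays and on 0 late juvenile arrays, limma called 41 higher. Only 6 transcripts had the opposite pattern, and all 6 were called lower in late proestrus. Late proestrus arrays detected a larger share of all probes, as given above, and the part of this in the 42 was not tested. Without rat 28 the classes asked for 0 or all of 4 late juvenile arrays, a looser condition, and held 76 and 13 transcripts. The filter itself let 125 transcripts in through late proestrus arrays alone, detected on 4 or 5 there and on 0 late juvenile arrays, and 23 through late juvenile arrays alone, so these had to differ in detection, and the direction of the calls among the 42 and the 6 was nearly fixed by how they were picked.

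Most called transcripts did not rest on the detection limit. Of the 2284, 1868 were detected on all 10 arrays, which is 21.4% of the 8732 transcripts detected that widely, beside 20.6% of all tested. With the transcripts divided into 5 equal sets from the dimmest to the brightest, 14.6%, 22.8%, 24.9%, 22.4% and 18.4% were called. Higher calls outnumbered lower ones in the dimmest set (192 against 131), while the next 4 held 246 and 259, 269 and 282, 251 and 246, and 197 and 211. The dimmest set spanned mean levels of 5.33 to 6.26. The 42 transcripts above, detected in late proestrus only, had a median level of 5.71. Of the 125 that the filter let in through late proestrus arrays alone 88 were called, and 18 of the 23 let in through late juvenile arrays alone. The excess in the dimmest set was not tested apart from the filter. Without rat 28 the called shares were 23.2%, 31.1%, 34.2%, 35.9% and 33.5%.

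Some targets carry more than 1 tested probe and allow a check within the array. For 202 such targets the brightest pair was compared, and at least 1 probe of the pair was called for 63. Over all 11292 probes that passed, 2323 were called. The pair had the same sign for 44 of these 63 targets. Signs were not counted for the pairs without a call, so the 44 have no share to be read against. Both probes were called for 12 targets, with the same sign for 9 of them, so 3 targets held a probe called higher beside a probe called lower. Probes of a target were not averaged, and each count above rests on the brightest.

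The 2 largest rises and the 2 largest falls among called transcripts are given by probe. ILMN_1650254 was steady in late proestrus, with log2 levels of 11.20, 11.41, 11.31, 11.29 and 11.24 on rats 11, 12, 13, 14 and 20, against 6.03, 5.81, 5.42, 5.03 and 10.16 on late juvenile rats 28, 29, 35, 36 and 37. All late proestrus arrays lay above all late juvenile ones, of which 4 were near background level and rat 37 was close below late proestrus. Raw signals were 2197 to 3798 in late proestrus, against 1155 on rat 37 and 184.9 to 238.2 on the other late juvenile rats. The fitted log2 difference was 4.80 (SE 0.78, limma adjusted p = 0.00266), but only 2 of 5 late juvenile arrays detected the probe, so its size rests partly on values near background. Without rat 37 the difference was 5.75.

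ILMN_1362029 was detected on all 10 arrays. It reached 12.10, 13.32, 13.37, 13.66 and 12.22 on late proestrus rats 11, 12, 13, 14 and 20, against 9.39, 10.75, 10.95, 10.23 and 6.83 on late juvenile rats 28, 29, 35, 36 and 37. The groups did not overlap, and both were wide, at 12.93 ± 0.72 in late proestrus and 9.63 ± 1.68 in late juvenile rats (SD, n = 5 each). The log2 difference was 3.30 (SE 0.69, limma adjusted p = 0.00814), which is 9.88-fold. It was 2.91 without background correction, so this probe depends little on that step. With array brightness as a covariate the difference was 2.50 and no longer passed (limma adjusted p = 0.135), and late juvenile rat 37, the lowest for this probe, brought it to 2.60 when left out.

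ILMN_1358715 was bright only in the late juvenile group of this pair. It lay at 5.84, 5.93, 5.68, 5.58 and 5.15 on late proestrus rats 11, 12, 13, 14 and 20, where 3 of 5 arrays detected it, against 8.38, 8.36, 9.66, 9.55 and 9.51 on late juvenile rats 28, 29, 35, 36 and 37. All late juvenile arrays were above all late proestrus arrays by more than 2 log2 units. The difference was -3.46 (SE 0.28, limma adjusted p = 5.75e-05), or -1.72 without background correction. Leaving out any 1 array kept it between -3.67 and -3.33.

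ILMN_1359107 lay at 5.50, 5.94, 5.62, 6.04 and 5.58 on late proestrus rats 11, 12, 13, 14 and 20, with 3 of 5 detecting it. Late juvenile rats 28, 35 and 36 had 8.57, 8.71 and 8.87, and rats 29 and 37 had 6.74 and 6.52, so the late juvenile values fell into a high and a low set, both above late proestrus. The difference was -2.14 (SE 0.44, limma adjusted p = 0.00807). It was -0.95 without background correction, and with array brightness as a covariate it was -2.04 and did not pass (limma adjusted p = 0.0901). ILMN_1358715 and ILMN_1359107 are the 2 transcripts called lower by 2 log2 units or more.

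**Figure D3:**
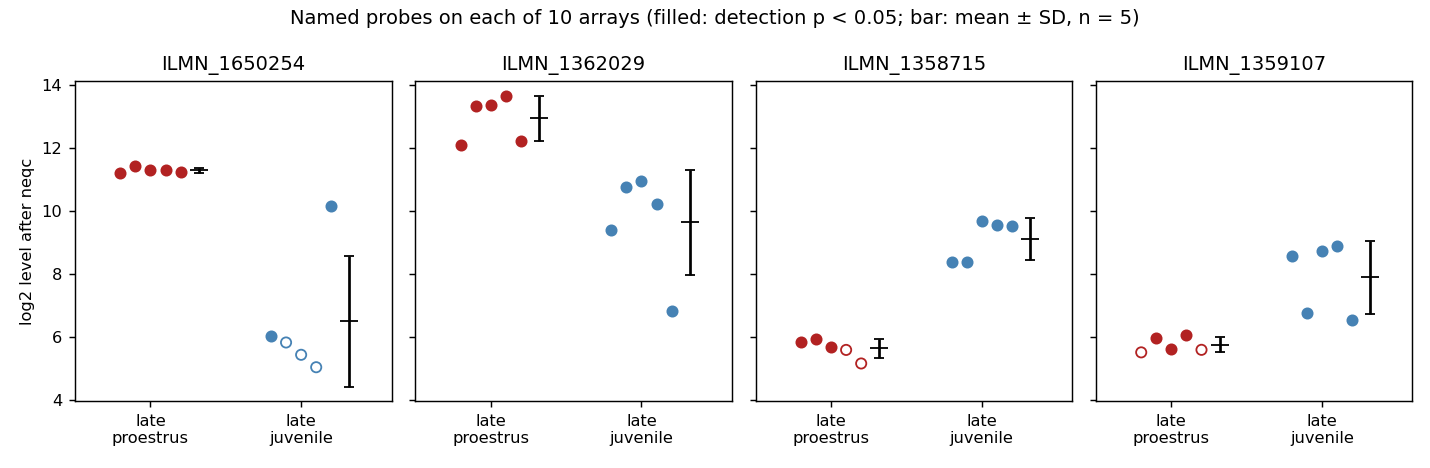
Log2 level after background correction and normalization for 4 probes, 1 point per array, late proestrus at the left and late juvenile at the right of each panel, with filled points where the detection p-value was under 0.05 and bars for mean ± SD (n = 5). In each panel the groups do not overlap, and late juvenile rat 37 lies at 10.16 for ILMN_1650254, far above the other 4 of its group.

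The other stages show where each group lies. On 22 arrays, without 1 juvenile and 1 early proestrus array whose share of detected probes was under 0.5 times the median, ILMN_1650254 averaged 11.46 ± 0.10 (SD, n = 5) in early juvenile, 11.32 ± 0.09 (SD, n = 4) in juvenile, 6.51 ± 2.12 (SD, n = 5) in late juvenile, 11.40 ± 0.12 (SD, n = 3) in early proestrus and 11.38 ± 0.08 (SD, n = 5) in late proestrus rats. Late juvenile was the lone low stage. ILMN_1358715 averaged 5.77, 5.55, 9.16, 5.66 and 5.64 in the same order, so that late juvenile was the lone high stage. ILMN_1359107 averaged 5.82, 6.57, 7.93, 5.57 and 5.75, with single juvenile arrays up to 8.38. ILMN_1362029 averaged 11.38, 12.66, 9.70, 11.75 and 13.00, and its early juvenile, juvenile and early proestrus arrays spanned 9.58 to 13.3, which overlaps both late proestrus (12.2 to 13.7) and late juvenile rats (6.86 to 11.0).

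**Figure D4:**
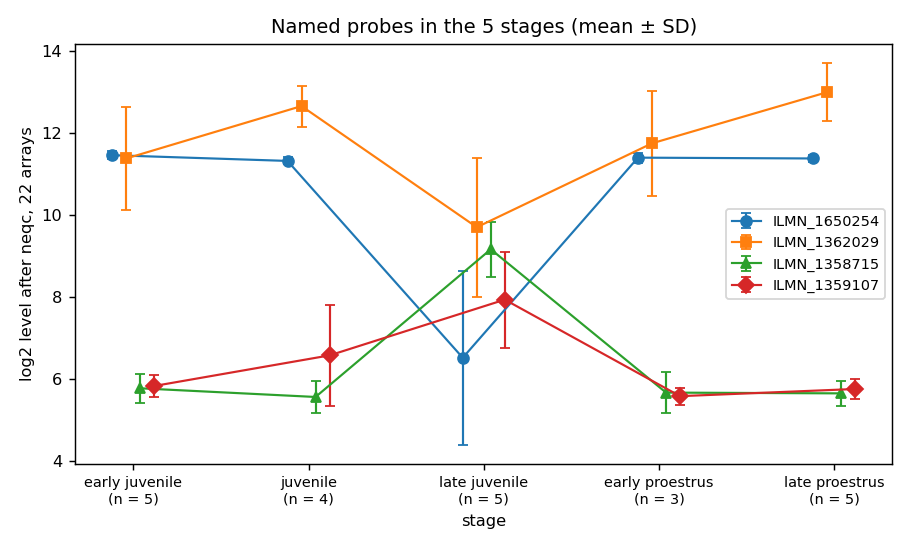
Mean log2 level ± SD of the 4 probes in the 5 stages on 22 arrays, with the number of arrays under each stage. ILMN_1650254 is low and ILMN_1358715 high in the late juvenile stage alone, at 6.51 and 9.16, while their late proestrus means of 11.38 and 5.64 lie near those of the other stages.

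By the number of transcripts called, late juvenile rats lay farther from the remaining stages than late proestrus rats did. Late proestrus minus the mean of early juvenile, juvenile and early proestrus gave 8 called transcripts of 12186 (0.0656%, limma), 7 higher (0.0574%) and 1 lower (0.00821%) in late proestrus, with 1073 at an unadjusted p under 0.05. Late juvenile minus the same mean gave 2414 (19.8%, limma), 1205 higher (9.89%) and 1209 lower (9.92%) in late juvenile rats. Both contrasts share the arrays of the 3 stages. The animal numbers of late juvenile rats, 28 to 37, form a block apart from the other stages. So do the early juvenile numbers, 164 to 168, and the juvenile numbers, 1 to 5. Those of early proestrus (8, 10, 17 and 18) and late proestrus (11 to 14 and 20) interleave. The placing of late juvenile rats therefore cannot be told apart from rearing or processing peculiar to their block. For ILMN_1650254 late proestrus differed from that mean by -0.01 (SE 0.50) and late juvenile by -4.88 (SE 0.50), and for ILMN_1358715 the values were -0.02 (SE 0.23) and 3.50 (SE 0.23). For ILMN_1362029 late proestrus differed by 1.07 (SE 0.58, limma adjusted p = 0.623) and late juvenile by -2.23 (SE 0.58, limma adjusted p = 0.00931). Median scaling turned the late juvenile split to 375 higher and 3859 lower. The count for late proestrus was 161 with array weights, 4 without late proestrus rat 12 and 21 without juvenile rat 5.

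The means of early juvenile, juvenile and early proestrus rats were also set against those of late proestrus and late juvenile rats, transcript by transcript. Arrays of the other stages took no part in the call, but the late proestrus and late juvenile means rest on arrays that did. All these arrays also gave the stage contrasts above, so the shares restate that placing and are not a separate check. Rearing or processing peculiar to the late juvenile block was not tested here either. Among transcripts called higher in late proestrus, the juvenile mean was nearer to late proestrus than to late juvenile for 949 of 1155 (82.2%). The early proestrus mean was so for 82.3% and the early juvenile mean for 69.1%. Among those called lower, the shares were 90.4%, 80.3% and 78.1% of 1128. Transcripts not called gave 63.7%, 59.9% and 58%. Over the transcripts called higher, the median difference from the juvenile mean was 0.09 for late proestrus and -0.41 for late juvenile, and over those called lower it was -0.07 and 0.40. Without rat 28 the called shares lay between 69.3% and 87.8%.

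**Figure D5:**
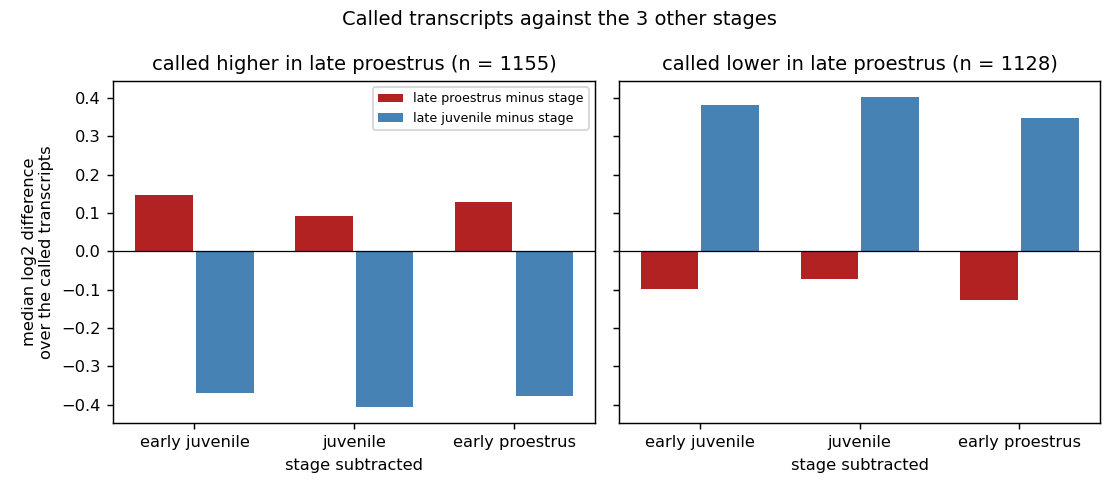
Median log2 difference of late proestrus (red) and late juvenile (blue) from each of the 3 other stages, over the transcripts called higher (left) and lower (right) in late proestrus. Red bars reach from -0.13 to 0.15 and blue bars from -0.41 to 0.40, with the colours on opposite sides of 0.

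Of the 3 stages, the juvenile one had the smallest median difference from late proestrus over the called transcripts, and this order was not tested. Late proestrus minus the stage mean had a median of 0.15 for early juvenile, 0.09 for juvenile and 0.13 for early proestrus over the transcripts called higher, and of -0.10, -0.07 and -0.13 over those called lower. In the order of the 5 stage means, late juvenile was the highest or lowest stage for 91% of the transcripts called higher and 95.1% of those called lower, and late proestrus was so for 54.1% and 50.5%. Among transcripts not called these shares were 55.5% for late juvenile and 33.5% for late proestrus. A call between the groups needs them apart, so these shares were bound to rise with it, and only the arrays of the other 3 stages took no part in it.

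The rats of a group did not contribute alike. Over the 2284 called transcripts, late proestrus rat 11 was the array of its group nearest to the late juvenile mean for 35.5% and rat 20 for 25.5%, while rats 12, 13 and 14 were so for 10.6%, 15.8% and 12.6%. Late juvenile rat 28 was nearest to the late proestrus mean for 37.6%, and the other 4 for 14.2% to 19.6%. The median level of the transcripts called higher was 8.31 to 8.46 on every late proestrus array and 7.68 to 7.87 on every late juvenile array. For those called lower it was 7.87 to 7.99 in late proestrus and 8.45 to 8.55 in late juvenile rats. These transcripts were chosen for differing on these same arrays, so the separation of the medians was fixed by that choice and is a description only.

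The typical spread within late juvenile rats depended on rat 28. The median SD of a transcript was 0.157 in late proestrus and 0.206 in late juvenile rats (n = 5 each), and 65.4% of transcripts had the larger SD in late juvenile rats. Without rat 28 the medians were 0.157 (n = 5) and 0.151 (n = 4), and that share was 47.9%. Rat 28 was set aside because it stood apart on these same arrays, so a smaller late juvenile SD without it was likely from the start. No late proestrus array was left out for comparison.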

How the data were processed

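Biotin-labelled cRNA of each rat was hybridised to an Illumina bead array, per the labels' protocols. The deposited intensity per probe was not normalized and stands beside a deposited detection p-value, per the file headers, and no array's lowest intensity was near 0. A table of the authors' processed intensity was used as an alternative. The sources used here name neither the scanner software nor how the authors normalized.

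Intensities of the 10 arrays were background-corrected, quantile normalized and log2 transformed with neqc (offset 16) in limma 3.58.1 under R 4.3.3, and fitted with lmFit and eBayes, 1 mean per group, with two-sided tests and Benjamini-Hochberg adjustment over all transcripts at 0.05. Stage contrasts used 22 arrays handled alike. The offset shrinks differences between dim probes. The number of arrays, 5 per group, limits the precision. Values were also simulated with independent normal spread and 200 of 11081 transcripts changed per draw. The fit recovered 54.8% of 1.5-fold, 90% of 2-fold and 98.8% of 3-fold changes, and 4.25% to 5.03% of the calls were false. Far more transcripts, 2284, were called in the data, so these rates need not hold for this comparison.

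Named probes are the 2 largest rises and 2 largest falls among called transcripts. This pair of stages, the probe rule and the gene lists were chosen with earlier results of these data known, while the arrays of each stage follow from the labels. The gene lists and marker levels were not run, because no identifier could be paired with a gene. Alternatives are given in the closing section.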

Additional observations from a re-analysis of the deposited data

Results flagged for a closer look

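Within each group of 5 arrays, the gap between the most extreme array and its nearest neighbour was compared with the whole range for 7 measures (mean signal, detected share, first component and 4 probes). In 3 of 14 such checks an array lay far out. Chance gives about 5% for a measure chosen without regard to its values. The 4 probes were picked by their differences on these arrays, so that rate need not hold for the 14. Late proestrus rat 13 detected 51.23% of probes, against 49.2% ± 0.27 (SD) on the other 4 arrays of its group. The mean raw signal of late juvenile rat 28 was 582.9, against 735.6 ± 18.8 (SD) on the other 4. ILMN_1650254 was at 10.16 on late juvenile rat 37, against 5.57 ± 0.44 (SD) on the other 4.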

How the results depend on the processing

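The late proestrus against late juvenile count (2284) stayed within 1.5 times in 14 of 21 settings. It was 5298 with median scaling, 3873 with array weights, 707 with array brightness as a covariate and 21 when all 24 arrays entered, which brings in the 2 arrays of low detection. Leaving out 1 array gave 1416 to 3458. The 2-fold count (142) was 26 without background correction, 322 (307 higher, 15 lower) with median scaling, 27 with the authors' processed values, 70 (38 higher, 32 lower) when each array had to detect the probe at p under 0.01, where 7571 transcripts remained, and 19 with 24 arrays, and ran from 126 to 181 with 1 array left out. Late proestrus against the 3 other stages (8) gave 18 without background correction, 18 with the authors' values, 13 with the strict filter, 161 with array weights, 24 with brightness, 16 with a trended robust prior and 1 with 24 arrays, and 4 to 21 with 1 array left out. Late juvenile against those stages (2414) gave 4234 with median scaling, 3783 with array weights and 59 with 24 arrays, and 1895 to 3150 with 1 array left out. No direction of a named probe turned in 81 refits, which was likely from the start for probes picked by the largest differences on these arrays. ILMN_1362029 and ILMN_1359107 lost the call with brightness and with 24 arrays (limma adjusted p = 0.732 and 0.1). The strict filter removed 3 named probes, all but ILMN_1362029. The group difference in mean signal ran from 171 to 255, in median signal from 1.68 to 16 and in detected share from 2.04 to 2.95 percentage points with 1 array left out. For the changes given without a cause, the cause was not tested. No paired analysis was possible because each animal number belongs to 1 rat and no groups share numbers. Dim probes near background limit the sizes given.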

Other observations

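Few transcripts differed widely between rats of a group. A range of 2 or more on the log2 scale was found for 18 transcripts within late proestrus and for 57 within late juvenile rats, with 5 in both, and 26 of the late juvenile ones kept such a range without rat 28. Called between the groups were 3 of the 18 in late proestrus, 12 of the 57 in late juvenile rats and 0 of the 5 found in both. Over all transcripts tested 20.6% were called, and these small counts are a description only.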
